A study of Mus musculus with 24 samples.

Results

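A set of 5 genes of the milk fat globule membrane, Btn1a1, Xdh, Plin2, Mfge8 and Cidea, was followed through lactation in the mouse mammary gland. The genes were chosen by symbol, and all 5 were among the 32544 gene symbols of the expression table and passed the filter on low values. Polyadenylated RNA of snap-frozen inguinal mammary glands was sequenced in 24 mice, 3 in each of 8 groups. The NZB mice were taken on lactation days 8, 14 and 21 and while not lactating, and so were the C57 mice. The labels write the genotypes as BL/6 NZB and BL/6 C57, a form used where mice of one nuclear background differ in their mitochondrial DNA, and say no more of them. By its title, the study is about organelles under the stress that lactation puts on the gland. Ages, parity before sampling and litter sizes were not used here, and nothing in the labels says whether the 3 mice of a group came from separate litters, so p-values measure the spread between these 24 glands.

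Milk fat leaves the secretory cell inside a coat of the cell's own membrane. Lipid droplets made in the endoplasmic reticulum move to the apical surface, are wrapped in plasma membrane and are pinched off whole. Plin2 (perilipin 2, adipophilin) coats the droplet inside the cell, Btn1a1 (butyrophilin) is a membrane protein of the apical surface, and Xdh (xanthine oxidoreductase, otherwise a purine-degrading enzyme) lies between them and completes the complex that holds the droplet to the membrane. Cidea, a droplet protein best known from brown fat, helps small droplets fuse and take up lipid and also acts on Xdh expression in the mouse gland. Mfge8 (lactadherin, MFG-E8) is secreted onto the globule surface, and outside milk it bridges dying cells to the phagocytes that remove them.

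In GENCODE release M21 (GRCm38), Btn1a1 lies on chromosome 13 (23456992 to 23465901, minus strand), Xdh on chromosome 17 (73883895 to 73950196, minus strand), Plin2 on chromosome 4 (86648386 to 86670060, minus strand) and Mfge8 on chromosome 7 (79133768 to 79149060, minus strand). All are protein coding, with 8, 36, 8 and 10 exons in their principal transcripts. Promoter sequence from RefSeq (GRCm38.p6) was matched for 2 members, Plin2 and Mfge8, which behaved differently on day 21. Each window runs 5′ to 3′ on the strand of the gene from 250 bases before the start site to 50 after it, at chr4:86670010-86670309 and chr7:79149011-79149310. Capitals mark matches on either strand to the motifs searched.
Plin2 promoter: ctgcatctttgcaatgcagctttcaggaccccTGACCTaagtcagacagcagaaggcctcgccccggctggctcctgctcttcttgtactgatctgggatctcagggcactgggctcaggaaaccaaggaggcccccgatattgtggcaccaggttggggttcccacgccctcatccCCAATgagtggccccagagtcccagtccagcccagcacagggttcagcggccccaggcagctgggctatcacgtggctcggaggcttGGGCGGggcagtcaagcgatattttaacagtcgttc
Mfge8 promoter: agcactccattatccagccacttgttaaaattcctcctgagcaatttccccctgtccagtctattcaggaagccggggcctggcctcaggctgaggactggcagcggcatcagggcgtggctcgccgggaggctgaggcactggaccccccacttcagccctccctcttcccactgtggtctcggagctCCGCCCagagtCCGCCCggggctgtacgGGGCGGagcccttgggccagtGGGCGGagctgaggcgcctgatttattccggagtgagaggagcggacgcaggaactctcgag
The Plin2 window held 1 nuclear receptor half-site (AGGTCA, read here as TGACCT, 218 bases before the start), 1 CCAAT box (CCAAT) and 1 GC box (GGGCGG). The Mfge8 window held 4 GC boxes, 2 of them on the other strand as CCGCCC, and neither of the other motifs. Neither window held TTCNNNGAA, the spaced palindrome that STAT5 binds, AGGAAGT, an ETS-type site, or TATAAA. Of 32851 promoter windows of the same length, 16.26% held the half-site, 37.41% the CCAAT box, 35.66% the GC box, 8.3% TTCNNNGAA, 9.35% AGGAAGT and 13.62% TATAAA. A match is a run of letters only, and says nothing of binding.

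Values are reads of a gene per 1000000 reads assigned to genes (CPM), with the 2 columns deposited for each mouse averaged. Depth, in units of 1000000 reads, ran between 14.81 and 24.25 in lactating glands and between 7.03 and 15.88 in non-lactating ones. The lowest, C57 non-lactating mouse 2, combined columns of 2.17 and 11.89. The title of C57 non-lactating mouse 3 says C57 while its genotype tag says NZB, and it was grouped by the title. Milk protein transcripts took 67.4% to 74.8% of counts in NZB glands on days 8 and 14 and 17.7% to 30.0% on day 21, against 61.2% to 75.7% in all C57 lactating glands. For that reason 17 milk protein genes were removed and the remaining CPM rescaled to 1000000, called non-milk CPM below. Member changes that passed the threshold on either scale, and whose call or sign depends on the scale, are given on both. Genes were compared with limma on log2(CPM + 1), and 16145 genes were tested. In these whole-gland samples fewer cells of a type and less RNA per cell cannot be told apart. Luminal epithelial markers were present in every gland, with sums of 1453 to 2690 non-milk CPM over 8 markers in lactating glands and 55.2 to 1272 in non-lactating ones.

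**Figure D1:**
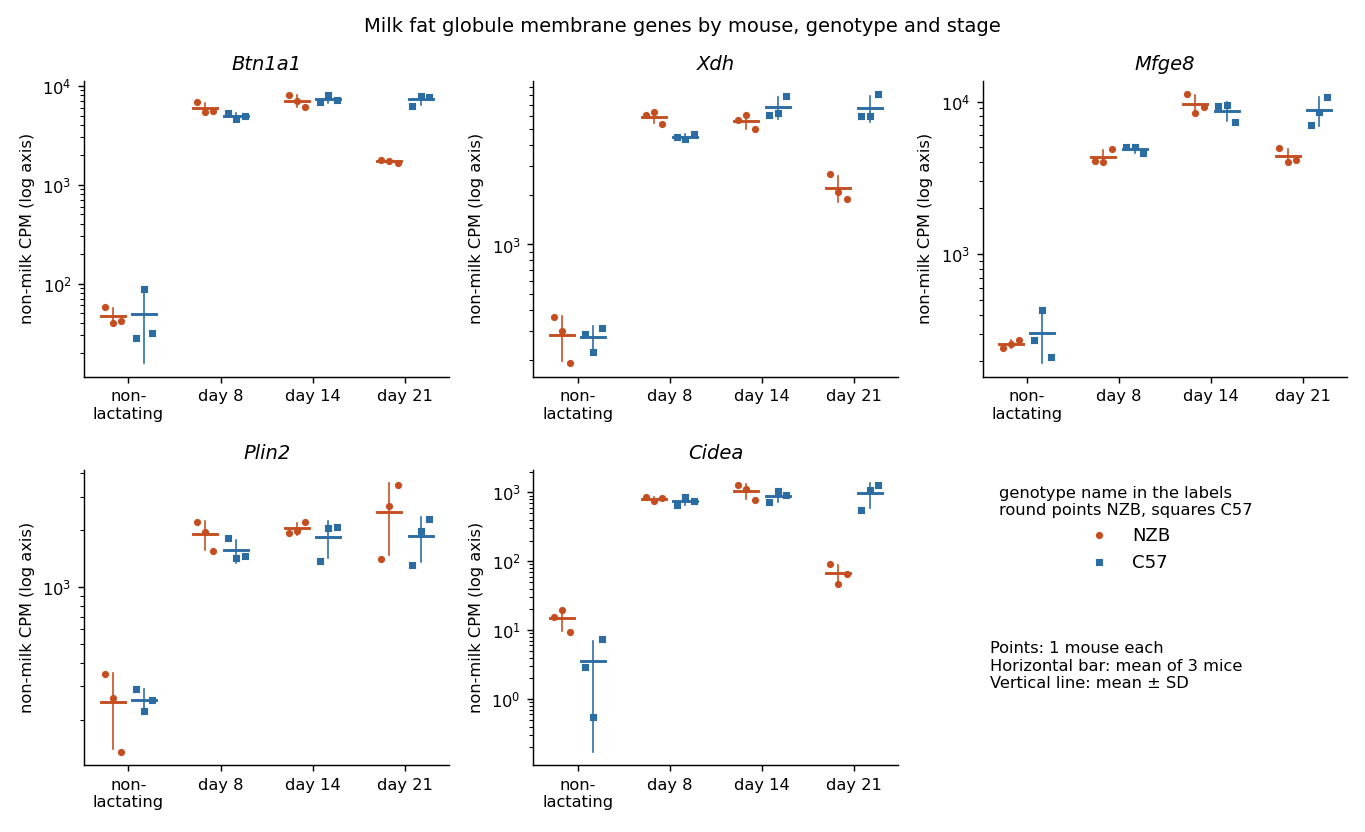
Non-milk CPM (log axis) of the 5 members in each of 24 mice by stage, with NZB as round points left of C57 as squares, a bar at the mean of 3 mice and a line for the mean ± SD. All lactating mice lie above all non-lactating mice of their genotype for every member, and on day 21 the NZB points fall below the C57 points for every member but Plin2. The share of all genes that separate in these ways was not computed.

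Btn1a1, the butyrophilin of the apical membrane, was scarce before lactation and abundant during it. In NZB mice it stood at 58.3, 40.2 and 42.3 non-milk CPM in the 3 non-lactating glands, 6877, 5473 and 5571 on day 8, 8130, 6962 and 6151 on day 14, and 1788, 1749 and 1670 on day 21. In C57 mice it stood at 28.2, 88.7 and 31.8 in non-lactating glands, 5260, 4575 and 4903 on day 8, 6825, 8148 and 7115 on day 14, and 6307, 7867 and 7723 on day 21. The genotypes overlapped before lactation and on day 14, the NZB mice lay above the C57 mice on day 8, and on day 21 the NZB mice formed a tight group far below the C57 mice. With milk protein genes kept in the total, the genotypes overlapped on day 8 as well.

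Xdh, the enzyme that links butyrophilin to the droplet, was already present in resting glands. In NZB mice its values were 363, 299 and 191 non-milk CPM before lactation, 6096, 6365 and 5354 on day 8, 5626, 6097 and 4977 on day 14, and 2651, 2078 and 1895 on day 21. In C57 mice they were 288, 224 and 311 before lactation, 4480, 4343 and 4633 on day 8, 6101, 6253 and 7899 on day 14, and 5953, 6020 and 8079 on day 21. On day 8 the NZB mice lay above the C57 mice, and on days 14 and 21 below them, by a wide gap on day 21 only. With milk protein genes kept in the total, the genotypes overlapped on days 14 and 21.

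Plin2, the droplet coat, had the smallest rise on days 8 and 14 over non-lactating glands. The NZB glands held 348, 259 and 135 non-milk CPM before lactation, 2217, 1956 and 1547 on day 8, 1940, 1985 and 2212 on day 14, and 1405, 2681 and 3452 on day 21. The C57 glands held 291, 223 and 253 before lactation, 1822, 1424 and 1457 on day 8, 1372, 2048 and 2080 on day 14, and 1318, 1981 and 2288 on day 21. The genotypes overlapped at all 4 stages, and the widest spread within a lactating group was that of NZB day 21. With milk protein genes kept in the total, the NZB mice of day 21 lay above the C57 mice of that day.

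Mfge8, the secreted coat protein, stood higher on day 14 than on day 8. In NZB mice it stood at 241, 255 and 273 non-milk CPM before lactation, 4082, 3989 and 4860 on day 8, 11121, 8424 and 9236 on day 14, and 4960, 4035 and 4151 on day 21. In C57 mice it stood at 272, 428 and 211 before lactation, 5037, 4996 and 4590 on day 8, 9301, 9508 and 7283 on day 14, and 7030, 8550 and 10740 on day 21. Day 14 lay above day 8 without overlap in both genotypes. On day 21 the NZB mice overlapped those of day 8, and all 3 lay below the C57 mice. With milk protein genes kept in the total, the NZB day 21 mice lay above both, so this order depends on the scale. They then stood at 3092 to 3470 CPM, against 1048 to 1226 in NZB mice on day 8 and 2085 to 2867 in C57 mice on day 21.

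Cidea, the droplet fusion protein, spanned a wide range. It has 5 exons on chromosome 18 (67343604 to 67367785, plus strand). NZB glands held 15.4, 19.7 and 9.35 non-milk CPM before lactation, 850, 741 and 819 on day 8, 1272, 1125 and 774 on day 14, and 90.1, 47.1 and 65.8 on day 21. C57 glands held 2.97, 0.549 and 7.37 before lactation, 648, 868 and 754 on day 8, 719, 1059 and 903 on day 14, and 547, 1100 and 1283 on day 21. The value of C57 non-lactating mouse 2 rests on 0 reads in its first column and 13 in its second. On day 21 every NZB mouse lay well below the lowest C57 mouse.

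Levels of different genes can be set side by side only per length. Per kilobase of principal transcript, the order of mean levels on day 14 in C57 was Mfge8 at 4093 ± 579 non-milk CPM per kilobase, Btn1a1 at 2151 ± 203, Xdh at 1468 ± 217, Plin2 at 971 ± 212 and Cidea at 802 ± 153 (SD, n = 3). Plin2 and Cidea overlapped there, while the other neighbours did not. The same order held in both genotypes on days 8 and 14 and in C57 on day 21. On day 21 the NZB order was Mfge8 at 2062 ± 237, Plin2 at 1331 ± 548, Btn1a1 at 507 ± 17.5, Xdh at 480 ± 85.7 and Cidea at 60.7 ± 19.3. Plin2 thus stood above Btn1a1 and Xdh in the NZB day 21 glands, with no overlap, and the last 2 named overlapped each other. The order depends on the length used. With all exons of a gene joined in place of the principal transcript, Cidea comes before Xdh and Plin2 on days 8 and 14 in both genotypes and on day 21 in C57, and on day 8 Btn1a1 comes before Mfge8, at 1450 ± 190.3 and 918 ± 102 in NZB mice and 1193 ± 83.2 and 1038 ± 52.7 in C57 mice. On NZB day 21 the mean of Plin2 then still lies above those of Btn1a1 and Xdh, at 716 ± 294, 421 ± 14.6 and 241 ± 43.0, but its lowest mouse lies below the Btn1a1 mice.

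Lactating glands were compared with non-lactating ones of the same genotype. All 5 members rose in NZB mice on days 8, 14 and 21. Of all genes tested, 48.4%, 47.6% and 33% passed the same threshold (adjusted p under 0.05) in either direction, and 14.5%, 15.1% and 17.2% rose. The same 5 of 5 rose in C57 mice, where 45.4%, 39.7% and 40.5% of all genes passed and 12.8%, 13.5% and 13.3% rose. By day 8 Btn1a1 was 126-fold higher in NZB mice (log2 change 6.97, SE 0.28, adjusted p = 2.74e-14) and 111-fold higher in C57 mice (6.80, SE 0.28, adjusted p = 4.95e-14). Xdh was 21.5-fold higher in NZB mice (4.42, SE 0.23) and 16.4-fold higher in C57 mice (4.04, SE 0.23). Mfge8 was 16.7-fold higher in both (4.06, SE 0.24 in each). Plin2 had the smallest change, 8.16-fold in NZB mice (3.03, SE 0.32) and 6.10-fold in C57 mice (2.61, SE 0.32). Cidea was 52.8-fold higher in NZB mice (5.72, SE 0.41) and 202-fold higher in C57 mice (7.66, SE 0.41), where the pseudocount of 1 CPM holds the fold down because C57 non-lactating glands had so little. Without C57 non-lactating mouse 2 the C57 fold was 130.6, and without mouse 3 it was 303.5.

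The median of all genes tested moved by −0.33 in NZB mice and −0.34 in C57 mice between day 8 and the non-lactating state on the non-milk scale, and by −1.80 and −1.81 on the deposited scale, in log2. All 5 members stayed past the threshold on the deposited scale in all 6 comparisons with non-lactating glands. Between 350 (C57 day 8) and 1590 (NZB day 21) of 16162 genes rose there. The smallest of these changes, Plin2 in C57 mice on day 8, was then 0.68 (adjusted p = 0.0495). Markers of fat cells moved the other way in the same glands. All 10 white adipocyte markers fell by day 8 in both genotypes, and their summed level was 560 to 842 non-milk CPM on day 8 and 5077 to 13835 before lactation in NZB mice, and 476 to 669 and 5881 to 11463 in C57 mice. The 8 luminal markers gave 6 rises and no fall in NZB mice and 2 rises and 3 falls in C57 mice. Of all genes tested on the non-milk scale, 14.5% rose and 33.8% fell in NZB mice, and 12.8% rose and 32.6% fell in C57 mice. Per CPM of the summed luminal markers, Xdh, Mfge8 and Plin2 overlapped between NZB non-lactating and day 8 glands. Xdh gave 0.925 to 3.46 before lactation and 3.06 to 3.49 on day 8, Mfge8 0.788 to 4.96 and 2.19 to 2.78, and Plin2 0.802 to 2.80 and 0.883 to 1.20. Btn1a1 and Cidea lay higher on day 8 on that ratio in NZB mice, as did all 5 members in C57 mice. The part of cell composition in the rise of the members was not tested.

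Most relatives of the droplet proteins fell. Of 9 genes listed as perilipin, CIDE and lipid droplet assembly relatives, 7 could be tested, and on day 8 in each genotype 1 rose and 6 fell, where 33.8% of all genes fell in NZB mice and 32.6% in C57 mice. Plin1, the perilipin of white fat cells, fell by 4.89 in NZB mice and by 5.14 in C57 mice (log2). Plin4, another fat cell perilipin, fell by 4.45 and by 4.12 in the same order of genotypes, and Cidec, the CIDE protein of white fat, by 3.82 and by 4.17. The single gene that rose was Plin3, found on droplets in many cell types, at 0.57 in NZB mice (adjusted p = 0.0491) and 0.63 in C57 mice (adjusted p = 0.0337), but on the deposited scale its change was −1.25 and −1.23. Among 7 butyrophilin relatives 4 were tested, and Btn2a2, an immune-regulating butyrophilin, rose by 3.62 in NZB mice and 2.21 in C57 mice. Genes of the molybdenum cofactor on which xanthine oxidoreductase depends were among the 3 of 11 tested that rose in its list, with Mocs1 at 2.43 in NZB mice and 2.33 in C57 mice and Gphn (gephyrin) at 1.96 and 1.71. Neither passed on the deposited scale, where Mocs1 was at 0.55 and 0.42 and Gphn at 0.08 and −0.20. Aox1, a related aldehyde oxidase, fell by 2.83 in NZB mice and by 3.36 in C57 mice.

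Most other proteins of the globule coat rose with the members. Of 10 listed, all tested, 9 rose and 1 fell in NZB mice on day 8, with a median log2 change of 5.38 against −0.33 over all genes, and 8 rose and 1 fell in C57 mice, with a median of 4.47 against −0.34. The phosphate carrier Slc34a2 rose by 7.63 in NZB mice and 9.82 in C57 mice, and the fatty acid carrier Fabp3 by 7.43 and 9.78. Cd59a, a complement inhibitor, was the one that fell, by 1.92 in NZB mice and by 2.08 in C57 mice. The fatty acid transporter Cd36 changed by 0.92 in NZB mice (adjusted p = 0.0349) and by 0.40 in C57 mice (adjusted p = 0.382). Its changes were −0.98 and −1.53 on the deposited scale, so its direction depends on the scale.

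Between days 14 and 8 Mfge8 was the only member that passed the threshold on the non-milk scale, in NZB mice. It was 2.22-fold higher on day 14 than on day 8 there (log2 change 1.15, SE 0.24, adjusted p = 0.0337), with 0.496% of all genes past the threshold. This call passed in 12 of 19 alternative analyses. It was lost without any one of the 3 NZB day 8 mice (adjusted p = 0.0884, 0.141 and 0.0685) and without NZB day 14 mouse 1 or 3 (0.13 and 0.153), while the change itself stayed between 1.04 and 1.24 in those 5 fits. In C57 mice Mfge8 was 1.77-fold higher on day 14 than on day 8 (0.83, SE 0.24, adjusted p = 0.0789), where 2.14% of all genes passed. None of the 5 members passed there with limma on the non-milk scale, and 2 (Xdh and Mfge8) had an unadjusted p under 0.05. Limma voom on recovered reads called none. On the deposited scale Mfge8 passed there with limma (1.0004, adjusted p = 0.049), so its call in C57 mice depends on the scale. With 1 weight per group Mfge8 also passed there on the non-milk scale (limma, adjusted p = 0.0238). The changes of Btn1a1, Xdh, Plin2 and Cidea lay between −0.09 and 0.37 in NZB mice and between 0.21 and 0.58 in C57 mice.

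Late lactation was examined by setting day 21 against day 14. In C57 mice the changes of the 5 members lay between −0.02 and 0.06 in log2, with 95% intervals of −0.60 to 0.57 for Btn1a1, −0.50 to 0.46 for Xdh, −0.64 to 0.66 for Plin2, −0.50 to 0.50 for Mfge8 and −0.80 to 0.91 for Cidea. No gene of 16145 was called by limma there (0%), 172 had an unadjusted p under 0.05, none of them a member, and limma voom also called none. Deviations from the group means correlated between same-numbered mice of these days at 0.481, 0.413 and 0.055. The intervals and p-values treat all these mice as independent, which was not tested.

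In NZB mice 4 of the 5 members fell on day 21, where 23.9% of all genes tested passed the threshold and 2911 rises stood against 941 falls. The split was 13867 against 148 on the deposited scale and 1215 against 1569 with median-ratio scaling, an alternative chosen after the data were seen. Cidea fell 15.6-fold (log2 change −3.96, SE 0.41, adjusted p = 9.81e-07), Btn1a1 4.05-fold (−2.02, SE 0.28, adjusted p = 4.49e-05), Xdh 2.54-fold (−1.34, SE 0.23, adjusted p = 3.59e-04) and Mfge8 2.18-fold (−1.13, SE 0.24, adjusted p = 0.00213). Plin2 was at 2513 ± 1034 non-milk CPM on day 21 and 2046 ± 145 on day 14 (SD, n = 3), a change of 0.20 (SE 0.32, adjusted p = 0.671, 95% interval −0.45 to 0.86). Even so, all 5 members were higher on NZB day 21 than in non-lactating NZB glands, where 17.2% of all genes rose. The fold changes were 36.7 for Btn1a1, 17.0 for Mfge8, 10.2 for Plin2, 7.93 for Xdh and 4.37 for Cidea.

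The scale matters for these values, because milk protein transcripts gave up much of their share in NZB mice on day 21. The median of all genes moved by 0.30 between days 21 and 14 on the non-milk scale and by 1.36 on the deposited scale. On the deposited scale the log2 changes were −2.55 for Cidea (adjusted p = 3.29e-06), −0.61 for Btn1a1 (0.0512), 0.06 for Xdh (0.814), 0.28 for Mfge8 (0.278) and 1.61 for Plin2 (1.05e-04), so the sign of Xdh and Mfge8 flips and Plin2 passes the threshold as a rise. Deposited CPM of Plin2 were 983, 2206 and 2572 in NZB mice on day 21, against 505, 539 and 721 on day 14, without overlap. Relative to the median gene the changes were −4.27 for Cidea, −2.32 for Btn1a1, −1.65 for Xdh, −1.43 for Mfge8 and −0.10 for Plin2 on the non-milk scale, and −3.91, −1.97, −1.29, −1.08 and 0.25 for the same genes on the deposited scale. Against the typical gene, then, Cidea, Btn1a1, Xdh and Mfge8 were lower on both scales. Plin2 lay 0.10 below it on the non-milk scale and 0.25 above it on the deposited scale. A single factor per library separates the scales. Apart from the pseudocount and the genes tested, these distances therefore agree by construction, and their match is no separate support.

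**Figure D2:**
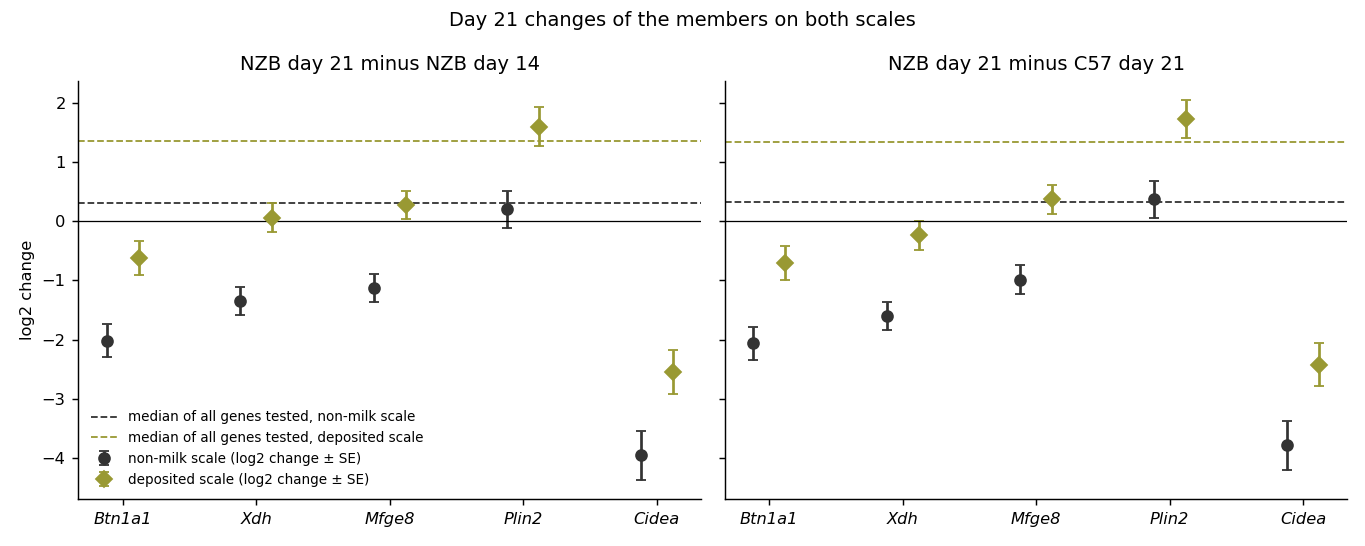
Log2 change ± SE of the 5 members between NZB day 21 and NZB day 14 (left) and between NZB and C57 on day 21 (right), on the non-milk scale (circles) and the deposited scale (diamonds), with dashed lines at the median of all genes tested on each scale. Cidea, Btn1a1, Xdh and Mfge8 lie below the median line of their scale in both panels, and Plin2 lies near it. Apart from the pseudocount and the genes tested, distances from that line agree between scales by construction.

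Ratios within a library do not depend on any scale. The ratio of Btn1a1 to Plin2 was 1.27, 0.652 and 0.484 in the NZB mice of day 21, against 4.19, 3.51 and 2.78 in those of day 14, and against 4.78, 3.97 and 3.38 in the C57 mice of day 21. Xdh to Plin2 gave 1.89, 0.775 and 0.549 in NZB mice on day 21, against 2.90, 3.07 and 2.25 on day 14 and 4.52, 3.04 and 3.53 in C57 mice on day 21. For Mfge8 to Plin2 the NZB values were 3.53, 1.505 and 1.20 on day 21, against 5.73, 4.24 and 4.18 on day 14 and 5.33, 4.32 and 4.69 in C57 mice on day 21. Cidea to Plin2 was 0.0641, 0.0176 and 0.0191 in NZB mice on day 21, against 0.656, 0.567 and 0.350 on day 14 and 0.415, 0.555 and 0.561 in C57 mice on day 21. In all 4 ratios the NZB day 21 mice lay below both sets without overlap, and mouse 1, which had the least Plin2, had the highest ratio. These are 4 ratios over 3 mice a group and are given without a test, since 3 against 3 allows no exact permutation p below 0.1. All 4 share the denominator Plin2 and the same 3 NZB mice of day 21. They therefore restate the changes above against the member that did not fall, and are no separate support. The share of all genes that separate from Plin2 in this way was not computed.

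**Figure D3:**
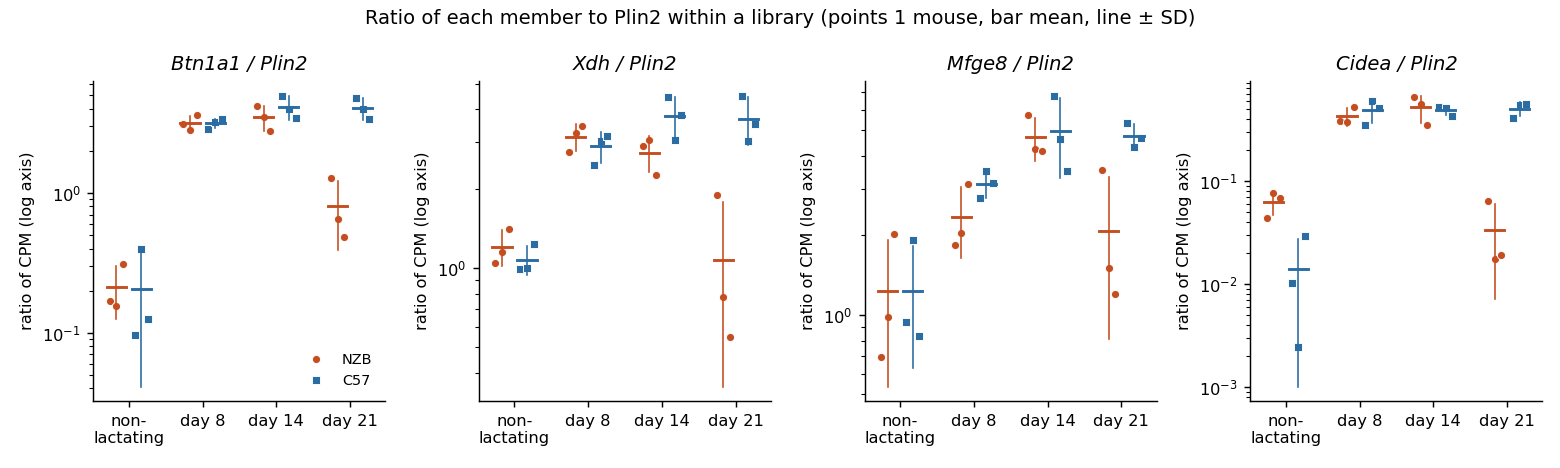
Ratio of the CPM of Btn1a1, Xdh, Mfge8 and Cidea to that of Plin2 in the same library (log axis) for each of 24 mice by stage, NZB left of C57, with the mean (bar) and ± SD (line) of 3 mice. The NZB day 21 mice lie below the NZB day 14 mice and the C57 day 21 mice in all 4 panels.

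Set against the epithelium in place of Plin2, the picture on day 21 was much the same. Btn1a1 CPM per CPM of the 8 summed luminal markers was 0.621 to 0.877 in NZB mice on day 21, against 3.10 to 4.43 on day 14 and 3.85 to 4.59 in C57 mice on day 21. The same ratio of Cidea was 0.0211 to 0.0442 in NZB mice on day 21, against 0.391 to 0.693 on day 14 and 0.334 to 0.671 in C57 mice on day 21. Plin2 gave 0.689 to 1.28 in NZB mice on day 21, against 1.06 to 1.20 on day 14 and 0.805 to 1.20 in C57 mice on day 21, and these ranges overlap.

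Markers of other cells moved at the same time. Between NZB days 21 and 14, 8 of 10 white adipocyte markers rose, all 6 macrophage markers, all 6 skeletal muscle markers, 4 of 8 luminal markers and 2 of 6 fibroblast markers rose, and 2 of 5 red blood cell markers fell. These counts are on the non-milk scale, where 18% of all genes tested rose and 5.83% fell. With so few genes, the fibroblast count is not told apart from that share. On the deposited scale 13867 of 16162 genes rose. The white adipocyte sum was 4532, 1288 and 1388 non-milk CPM in the 3 NZB mice of day 21, against 554, 710 and 930 on day 14. Mouse 1, with the highest fat cell sum, had the lowest Plin2 of that group. The macrophage sum was 261 to 533 on day 21, against 103 to 152 on day 14. The muscle sum was 252, 905 and 7.28 on day 21, against 4.94, 10.3 and 5.44 on day 14, so it is high in 2 of the 3 day 21 libraries. No marker of these lists was at 0 in every mouse of either group. The part of these cells in the changes of the members was not tested.

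On day 21 NZB glands differed from C57 glands in the same 4 members, with 26.6% of all genes tested past the threshold. Cidea was 13.8-fold lower in NZB mice (log2 difference −3.79, SE 0.41, adjusted p = 1.3e-06), Btn1a1 4.18-fold lower (−2.07, SE 0.28, adjusted p = 2.32e-05), Xdh 3.03-fold lower (−1.597, SE 0.23, adjusted p = 4.27e-05) and Mfge8 1.98-fold lower (−0.99, SE 0.24, adjusted p = 0.00449). Plin2 differed by 0.37 (SE 0.32, adjusted p = 0.397, 95% interval −0.28 to 1.03). This comparison shares its NZB day 21 mice with the one before. With milk protein genes kept, the median gene differed by 1.35 and the members by −2.42 for Cidea, −0.70 for Btn1a1 (adjusted p = 0.0276), −0.24 for Xdh (0.37), 0.38 for Mfge8 (0.149) and 1.73 for Plin2 (4.77e-05). Less that median, the members stood at −3.78, −2.06, −1.59, −0.98 and 0.38 in the same order. With only the 6 mice of these groups fitted, the Mfge8 difference missed the threshold (adjusted p = 0.0886).

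The difference between genotypes in the step from day 14 to day 21 was tested directly, and 4 of 5 members passed, with 6.83% of all genes past the threshold. It was −4.02 for Cidea (SE 0.59, adjusted p = 2.48e-04), −2.004 for Btn1a1 (SE 0.40, adjusted p = 0.00509), −1.32 for Xdh (SE 0.33, adjusted p = 0.0182), −1.13 for Mfge8 (SE 0.34, adjusted p = 0.0474) and 0.19 for Plin2 (SE 0.45, adjusted p = 0.834), where negative means a greater fall in NZB mice. The Cidea call held in all 25 alternatives, that of Btn1a1 in 24, that of Xdh in 19 and that of Mfge8 in 8. The p-values treat the C57 mice of days 14 and 21 as independent, which was not tested. Deviations of same-numbered C57 mice of these days correlated at 0.481, 0.413 and 0.055. Xdh missed the threshold without NZB day 14 mouse 2 (adjusted p = 0.0572), C57 day 14 mouse 1 (0.0516) or C57 day 21 mouse 3 (0.0562). On the deposited scale the values were −2.60 for Cidea, −0.59 for Btn1a1, 0.09 for Xdh, 0.29 for Mfge8 and 1.605 for Plin2, with the median gene at 1.38. Counted from the non-lactating state, the genotypes differed on day 21 in 3 members, Cidea (−5.82, SE 0.59), Btn1a1 (−2.17, SE 0.40) and Xdh (−1.61, SE 0.33), with 18.1% of all genes past the threshold. With milk protein genes kept, Cidea stayed past it (−4.44, adjusted p = 1.77e-06), Btn1a1 (−0.79, adjusted p = 0.0887) and Xdh (−0.24, adjusted p = 0.554) did not, and Plin2 passed as a greater rise in NZB mice (1.89, adjusted p = 0.00118). Without C57 non-lactating mouse 2 the Cidea value was −5.19, and without mouse 3 it was −6.41.

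Earlier in lactation no member passed the threshold between genotypes. On days 8 and 14 none of the 5 passed with limma, none had an unadjusted p under 0.05 and limma voom called none, with 0.0372% of all genes past the threshold on each day. On day 8 the differences, NZB minus C57, ran between −0.18 (Mfge8) and 0.40 (Xdh, 95% interval −0.08 to 0.88), and on day 14 between −0.27 (Xdh) and 0.23 (Cidea). The change between day 8 and the non-lactating state differed between genotypes for no member at the threshold (0.762% of all genes passed), nor did the change to day 14 (0.725%). Cidea had an unadjusted p under 0.05 in both, with differences of −1.94 (adjusted p = 0.138) and −1.80 (adjusted p = 0.18). Limma voom called no member in either. Without C57 non-lactating mouse 3, the one whose labels disagree, these became −2.52 (adjusted p = 0.0204) and −2.39 (adjusted p = 0.0281). Without C57 non-lactating mouse 2, the one with 0 and 13 reads, they became −1.31 (adjusted p = 0.351) and −1.17 (adjusted p = 0.37).

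In non-lactating glands Cidea was the only member that passed between genotypes, with 5.35% of all genes past the threshold. It was 4.09-fold higher in NZB glands (log2 difference 2.03, SE 0.41, adjusted p = 0.00517), on a mean of 14.8 ± 5.21 non-milk CPM, against 3.63 ± 3.46 in C57 glands (SD, n = 3). Without C57 mouse 2 the difference was 1.40 (adjusted p = 0.0462), and without C57 mouse 3, whose labels disagree, 2.62 (adjusted p = 5.23e-04). It missed the threshold with only the 6 non-lactating mice fitted (adjusted p = 0.353) and without NZB mice 2 and 3 (2.14, adjusted p = 0.0594). Of the 10 other coat proteins 2 were higher and 3 lower in NZB glands, namely Slc34a2 (2.39, SE 0.38) and Fabp3 (2.15, SE 0.30) above, and Cd24a (−1.57, SE 0.36), Muc1 (−1.17, SE 0.27) and Ceacam1 (−0.80, SE 0.19), all 3 surface glycoproteins, below. The cell markers of these glands differed widely. Luminal markers summed to 124, 324 and 55.2 non-milk CPM in NZB glands, against 591, 1272 and 597 in C57 glands, and 7 of 8 were lower, as were all 7 myoepithelial markers. Lymphocyte markers summed to 14.1, 339 and 968 in NZB glands, against 16.1, 13.9 and 11.6 in C57 glands. Markers of brown or beige fat cells, which express Cidea, summed to 43.8 to 75.6 in NZB glands, against 23.7 to 35.0 in C57 glands, and 1 of 5 tested passed the threshold (Cpt1b, 1.31, adjusted p = 0.0281). The part of these cells in the Cidea difference was not tested.

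**Figure D4:**
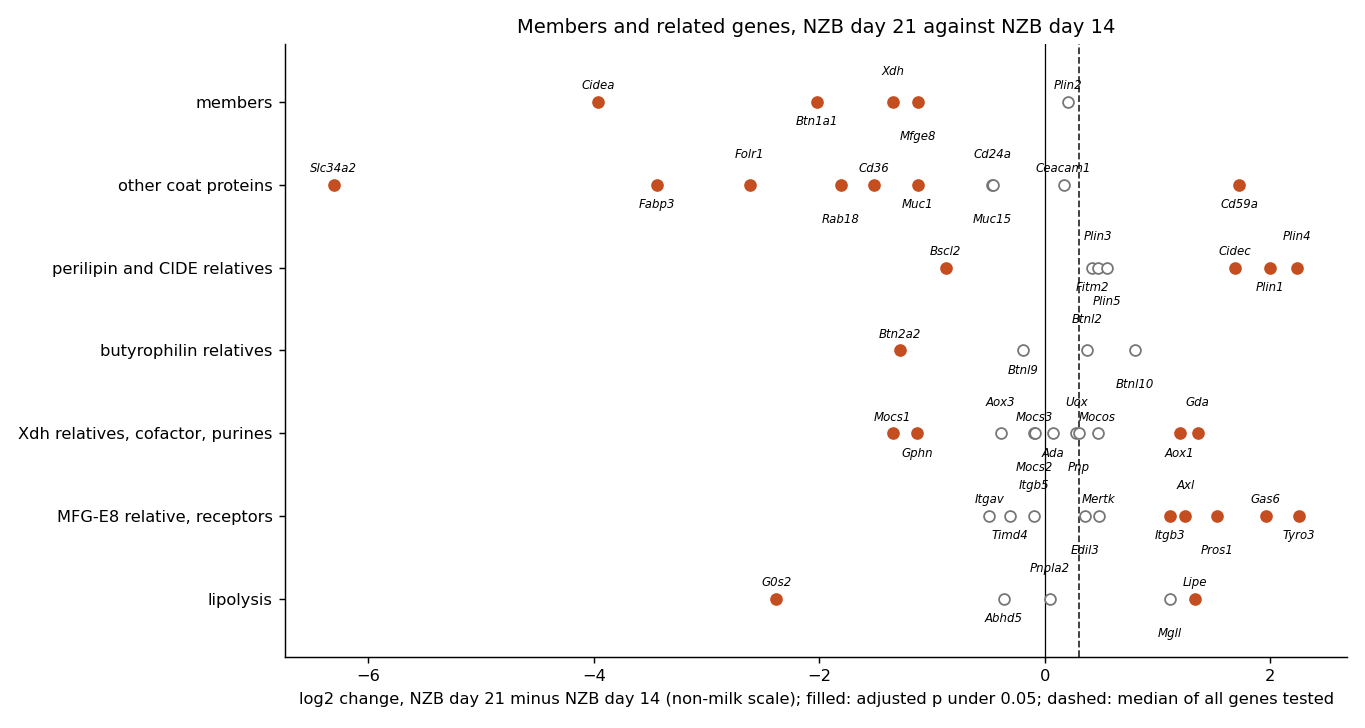
Log2 change between NZB day 21 and NZB day 14 (non-milk scale) of the members and of 6 lists of related genes, filled where the adjusted p is under 0.05, with the dashed line at the median of all genes tested (0.30). Most of the other coat proteins lie left of the line with 4 of the members, while Plin1, Plin4 and Cidec lie to the right.

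Related genes were followed in the same comparison, NZB day 21 against NZB day 14. Of the 10 other coat proteins 6 fell, 1 rose and 3 did not pass, with a median change of −1.32, where 5.83% of all genes fell and 18% rose. On the deposited scale the same list gave 4 rises and 3 falls, with a median of 0.08. Slc34a2 stood at 32.0 to 163 non-milk CPM on day 21, against 3184 to 6787 on day 14 (−6.31, SE 0.38, adjusted p = 5.56e-10). Fabp3 stood at 190 to 365, against 2133 to 4012 (−3.44, SE 0.30), and Folr1, the folate receptor, at 40.9 to 69.9, against 306 to 387 (−2.62, SE 0.37). Cd59a rose (1.73, SE 0.34) on levels of 12.3 to 22.6, against 4.03 to 6.34. On the deposited scale Slc34a2, Fabp3 and Folr1 still fell (−4.89, −2.03 and −1.21), while Muc1 and Cd36, which had fallen by 1.13 and by 1.51, were at 0.28 and −0.11.

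Of the 7 perilipin and CIDE relatives tested, 3 rose and 1 fell in that comparison, and 6 rose and none fell on the deposited scale. Plin4 rose by 2.24 (SE 0.42), Plin1 by 2.001 (SE 0.43) and Cidec by 1.69 (SE 0.60, adjusted p = 0.0461), and all are white fat cell genes, 2 of them among the adipocyte markers above. G0s2, an inhibitor of the lipase that opens droplets, fell by 2.38 (SE 0.52), and Lipe, the hormone-sensitive lipase, rose by 1.33 (SE 0.41). In the xanthine oxidoreductase list 2 of 11 fell, Mocs1 by 1.35 (SE 0.20) and Gphn by 1.13 (SE 0.19), and 2 rose, the guanine deaminase Gda by 1.36 (SE 0.34) and Aox1 by 1.20 (SE 0.33). Those 2 of 11 are close to the 18% of all genes that rose, and the deposited scale gave 8 rises and no fall in this list. Btn2a2 fell by 1.28 (SE 0.38, adjusted p = 0.0176), the only one of 4 butyrophilin relatives to pass. With milk protein genes kept Mocs1, Gphn and Btn2a2 were at 0.04, 0.26 and −0.06, so those falls depend on the scale.

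Of 10 genes listed as a relative of Mfge8, its receptors and other bridges of cell clearance, 5 rose and none fell between NZB days 21 and 14, beside the 18% of all genes that rose. All 6 macrophage markers rose in the same comparison, and their part in these changes was not tested. The deposited scale gave 9 rises in this list, and there Mfge8 itself stood at 0.28. The receptor kinase Tyro3 rose by 2.26 (SE 0.60), Gas6, the ligand that ties such receptors to dying cells, by 1.96 (SE 0.29) and protein S (Pros1), another such ligand, by 1.53 (SE 0.28). Gas6 stood at 101.0 to 150.0 non-milk CPM on day 21, against 23.8 to 40.3 on day 14. The integrin subunits Itgav and Itgb5, through which MFG-E8 binds cells, changed by −0.49 (adjusted p = 0.0878) and −0.10 (adjusted p = 0.838). Among 9 regulators of milk fat and secretory genes 1 passed, Stat5b, a mediator of prolactin signals, which fell by 0.86 (SE 0.22, adjusted p = 0.00794). Elf5, a factor of alveolar cells, changed by −0.66 (adjusted p = 0.0882) and Pparg, a regulator of fat genes, by 1.05 (adjusted p = 0.0537). Stat5b and Elf5 stood at 0.54 and 0.74 on the deposited scale, so their signs depend on it.

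The genes whose pattern was most like that of a member over the 24 glands were ranked by Pearson's r on the non-milk scale among 14531 genes, and are given as a description, since all glands share the step into lactation. Btn1a1 was followed most closely by Qsox1 (0.996), Slc28a3 (0.992) and Atp2c2 (0.991), and Xdh by Qsox1 (0.985), Slc28a3 (0.984) and Atp13a4 (0.983). Cidea was most like Lao1 (0.988), Olah (0.981) and Fabp3 (0.977), and Mfge8 most like Dyrk3 (0.992), Adgrf1 (0.988) and Timd2 (0.984). The closest to Plin2 were Lgr4 (0.974), Slc39a8 (0.970) and Zdhhc9 (0.968). Btn1a1 and Xdh shared Qsox1 and Slc28a3, and no other member shared a gene so named with another. Among the 18 lactating glands alone, r between Plin2 and the other members was −0.34 (Cidea), −0.32 (Xdh), −0.27 (Btn1a1) and −0.08 (Mfge8), while the other 6 pairs gave 0.56 to 0.96.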

How the data were processed

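Per the labels, poly(A) RNA of snap-frozen inguinal mammary glands was sequenced. Per the submitters' processing notes, the builds were GRCm38 and mm10. Which aligner and counter were used is not given in the sources read. The authors deposited log10 of CPM plus 1: undoing that log gives 1000000 CPM in every one of 48 columns. The design assumed log2 values, so a conversion to log2(CPM + 1) came first. At a tolerance of 0.05, 100% of values were whole reads. The chi-square per gene was at most 1.64 between the 2 columns of a mouse, against 11.7 or more between mice, so a mouse's columns were averaged in CPM as 1 replicate.

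Limma 3.58.1 in R 4.3.3 (eBayes with trend) was fitted to all 24 mice with a mean for each of 8 groups, leaving 16 residual degrees of freedom. Tests were 2-sided, and Benjamini-Hochberg adjustment ran over all genes in each of 18 comparisons. Genes above 1 CPM in at least 3 mice were tested, and a gene passed at an adjusted p under 0.05. Folds on this scale understate changes of low genes. The fit was also run on simulated data, in which NZB day 21 had the day 14 means apart from a set of changed genes. That simulation held no drop in milk protein share and used the same spread setting for every gene. It therefore does not bear on how such a drop affects the day 21 calls.

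Every member was named in each comparison, with up to 3 passing genes of a related list and the 3 genes most like each member. Further list genes were named after their values were seen. Members and lists were chosen with earlier results of these data known. Alternatives covered the scale, milk list, pseudocount, filter, samples fitted, weights, replicate block, columns, voom, median-ratio scaling and leaving out mice. Transcript lengths are from GENCODE M21. Python 3.11.15, numpy 2.4.6, pandas 2.3.3 and matplotlib 3.10.9 were used.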

Additional observations from a re-analysis of the deposited data

Results flagged for a closer look

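The step from day 14 to day 21 differed between genotypes by a direct test (limma, NZB less C57, log2) for Cidea (−4.02), Btn1a1 (−2.00), Xdh (−1.32) and Mfge8 (−1.13). On the deposited scale these became −2.60, −0.59, 0.09 and 0.29, so only the Cidea difference is free of the choice of scale in sign and call. The test treats the C57 mice of days 14 and 21 as independent, which was not tested. The change between day 21 and the non-lactating state also differed between genotypes for Cidea (−5.82), Btn1a1 (−2.17) and Xdh (−1.61), which on the deposited scale were −4.44, −0.79 (adjusted p = 0.0887) and −0.24 (adjusted p = 0.554). Both sets rest on the same 3 NZB mice of day 21, in which the summed white adipocyte and macrophage markers were above every NZB mouse of day 14, and the muscle markers in mice 1 and 2. Their part in these differences was not tested.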

How the results depend on the processing

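Over 1830 results for a member in an alternative, 1722 kept their direction and side of the threshold, 36 lost the call, 10 gained it, and 62 changed sign. Of the sign changes, 57 were of values past no threshold in either setting, 3 of them on the deposited scale, and 5 were of called values. These 5 came on the deposited scale, where the milk protein genes stay in the total. Between NZB days 21 and 14 they were Xdh at 0.062 and Mfge8 at 0.28, between NZB and C57 on day 21 Mfge8 at 0.38, and in the genotype difference of the step from day 14 to day 21 Xdh at 0.0886 and Mfge8 at 0.29. The count of members past the threshold between NZB days 21 and 14 was then 2 in place of 4, and that of the genotype difference 2 in place of 4. That of the genotype difference was also 2 without a filter on low values and with only the groups compared, and 2 to 4 over single mice left out. Between NZB days 14 and 8 the count was 0 in place of 1 without a filter and with only the groups compared, and 0 to 1 over single mice left out. Between C57 days 14 and 8 it was 1 in place of 0 on the deposited scale and with 1 weight per group. For NZB against C57 non-lactating glands it was 0 in place of 1 with only the groups compared and without NZB mice 2 and 3. For the genotype differences of days 8 and 14 against the non-lactating state it was 0 to 1 over single mice left out, and 1 only without C57 non-lactating mouse 3. Where no value shows otherwise, the cause was not tested.

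Counts over all genes moved more. Between NZB days 21 and 14 there were 2911 rises and 941 falls, against 13867 and 148 on the deposited scale, 1215 and 1569 with median-ratio scaling, and 4394 rises with only the core milk list removed. Rises were 1504 without NZB day 14 mouse 2 and 1867 without NZB day 21 mouse 2. For NZB against C57 on day 21 there were 3391 higher and 903 lower genes, against 13774 and 162 on the deposited scale and 1579 and 1596 with median-ratio scaling. In non-lactating glands 278 higher and 585 lower genes became 4 and 2 with only the groups compared and 20 and 278 without NZB mice 2 and 3. In the genotype difference of the step from day 14 to day 21, 728 higher genes became 12040 on the deposited scale, 244 with median-ratio scaling and 370 with limma voom.

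With the F number as a replicate block, the count of members was the same in 17 of 18 comparisons, and 3 in place of 4 for the genotype difference of the step from day 14 to day 21, where Mfge8 had an adjusted p of 0.0619. Deviations of same-numbered mice correlated above 0.1 at all 3 numbers in no comparison. They were positive at all 3 for NZB days 21 and 14 (0.042, 0.063 and 0.066) and C57 days 14 and 8 (0.058, 0.085 and 0.09). The same held for NZB and C57 on day 14 (0.039, 0.09 and 0.052) and for C57 days 21 and 14. The last pair came nearest to the cutoff at all 3, with 0.481, 0.413 and 0.055. Same-numbered C57 mice of days 21 and 14 had close values. Btn1a1, for one, stood at 2465, 1979 and 2081 deposited CPM on day 14 and 2448, 1919 and 2061 on day 21. Whether those glands are independent was not tested. The planned TMM factors and count-model tests were not run, and limma voom on recovered reads and median-ratio scaling were added after the data were seen. Of the members in each group, Cidea in C57 non-lactating glands rested on the fewest reads, a mean of 55.0 ± 56.0 (SD, n = 3).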
